A study of Ovis aries with 2 samples.

Results

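Collagens are the triple-helical proteins that make up most of the fibrous matrix of skin and the core of its basement membranes. Every row of the deposited expression table whose gene symbol reads COL, a number, A and a number was taken as a collagen chain, which gave 40 of 18161 genes. Of these chains, 27 had at least 100 UMIs (unique molecular identifiers, 1 for each captured transcript) over all cells, and the levels below are given for those 27. The samples were skin from the body side of Hu sheep lambs labelled as 3 days old, 1 library from straight wool animals and 1 from animals labelled waved wool, called curly here. Each library pooled the skin of several animals and mixed cells of microdissected hair follicles, loosened with TrypLE, with cells of whole skin, which was first digested with collagenase IV. Both libraries were made by droplet single-cell RNA sequencing. With 1 library for each wool type there was no replicate, no test was possible between them, and every interval given is an exact 95% interval that covers counting error only.

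The straight library held 6452 cells with a median of 7373.5 UMIs, and the curly library 7585 cells with a median of 7495.0 UMIs. A total of 70 cell barcodes occurred in both libraries. The deposited table gives no cell types, so the cells were clustered again from genes other than the collagens, and 21 named classes or unnamed clusters with at least 25 cells in each library were compared. Names carry the suffix -like because they rest on marker genes. DPC-like cells (dermal papilla, the mesenchyme at the base of the follicle) were the most numerous dermal class, with 1244 straight and 658 curly cells. Fibroblast-like cells (LUM, MFAP5, PI16) numbered only 43 and 60, with medians of 957.0 and 941.5 UMIs per cell. Contractile-like cells numbered 56 and 276. Most of them fell in cluster 20, led by ACTG2, ACTA2 and CNN1, which also carried the basal epidermal markers, so that the whole class summed to 6425.2 straight and 8602.8 curly CPM of those markers, and 25 cells fell in cluster 28, led by DES. A level is in CPM, the UMIs of a gene per 1000000 UMIs summed over the cells of a class in 1 library. Levels are compared between classes and libraries, never between genes, since they are not set per transcript length.

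A collagen molecule is a trimer of chains, so that genes such as COL1A1 and COL1A2 supply 1 molecule together. Fibrillar collagens (types I, III and V in skin) build the ropes of the dermis, and type VI forms beaded filaments around cells. Type IV makes the sheet of every basement membrane, type VII anchors the epidermal membrane to the dermis, and type XVII is a transmembrane collagen of hemidesmosomes, which hold basal keratinocytes down. The FACIT collagens coat fibrils, and the multiplexins XV and XVIII sit in basement membrane zones and bear heparan or chondroitin sulphate.

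The share of collagen among all transcripts was highest in a small, shallow class of cells. Collagens made up 5.46% of the UMIs of fibroblast-like cells in the straight library and 6.33% in the curly library. The next classes were far lower: mural-like cells (pericytes or vascular smooth muscle) held 0.513% and 0.202%, and DPC-like cells 0.404% and 0.315%. Contractile-like cells had 0.215% and 0.179%, endothelial-like cells 0.173% and 0.134%, and HFSC-like cells (hair follicle stem cells) 0.151% and 0.174%. At the other end, suprabasal IFE-like cells (the differentiating layers of the epidermis between follicles) held 0.0286% and 0.0146%, and IRS-like cells (the inner root sheath) 0.0126% and 0.00733%.

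Of the 27 chains, 15 had their highest CPM in fibroblast-like cells in both libraries, against 7.15% of the 13196 genes of the table counted by the same rule. The rule takes no account of counting error, and this class had the fewest UMIs, 85102 straight and 103426 curly. Its leads for COL4A1, COL15A1, COL16A1 and COL27A1 were not beyond counting error, and that for COL21A1 rested on 7 and 3 UMIs. A dermal, vascular, contractile or immune class led for 22 chains, against 38.8% of genes, and an epidermal, follicular or glandular class or unnamed cluster for 4 chains, against 34.8% of genes. The 4 were COL7A1, COL9A1, COL17A1 and COL18A1. The 22 included COL4A5, COL4A6 and COL12A1, led by contractile-like cells, whose main cluster also carried basal epidermal markers. DPC-like cells led for COL13A1 and COL23A1 (2.42% of genes), contractile-like cells for COL4A5, COL4A6 and COL12A1 (2.68%), HFSC-like cells for COL7A1 and COL18A1 (0.962%), and endothelial-like cells for COL8A1 (3.2%). For COL4A2, COL8A2, COL9A1 and COL17A1 the leading class differed between the libraries. Because the fibroblast-like class was much smaller than the DPC-like class, a chain could be led by fibroblasts and still have most of its UMIs in the papilla, as did COL6A1, with 81.9% of its UMIs in DPC-like cells.

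**Figure D1:**
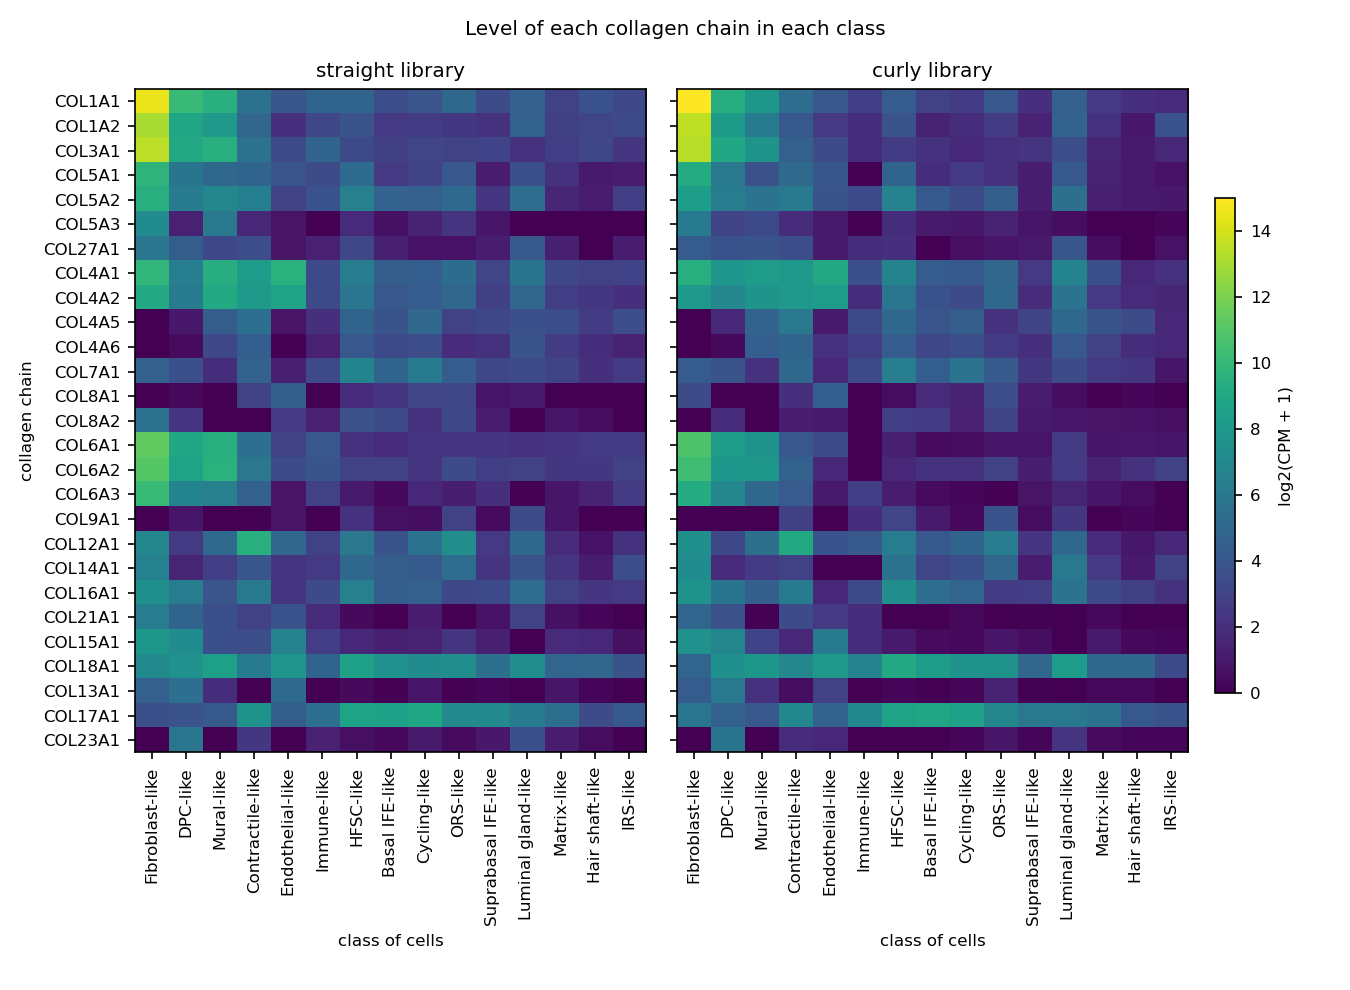
Heatmap of the level of the 27 collagen chains with at least 100 UMIs, as log2(CPM + 1), in 15 named classes of each library. The fibroblast-like columns are brightest (highest) for the fibrillar and beaded filament chains, COL12A1 stands out in contractile-like cells, and COL17A1 and COL7A1 in basal and follicular epithelium.

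The families that made up the collagen transcripts differed from class to class. In fibroblast-like cells 84.7% of collagen UMIs in the straight library and 91.2% in the curly library came from fibrillar chains. DPC-like cells had 55.8% and 50.0% fibrillar chains, with 25.7% and 21.5% from the beaded filament chains of type VI. Endothelial-like cells drew 68.8% and 62.5% from type IV chains. Contractile-like cells were led by FACIT chains with 37.0% and 36.1% and by type IV with 30.1% and 33.4%. In basal IFE-like cells the transmembrane family, nearly all of it COL17A1, made up 48.5% and 49.3%. Cluster 9, an unnamed epithelial cluster led by KRT6A, drew 57.0% and 66.9% from the multiplexins.

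**Figure D2:**
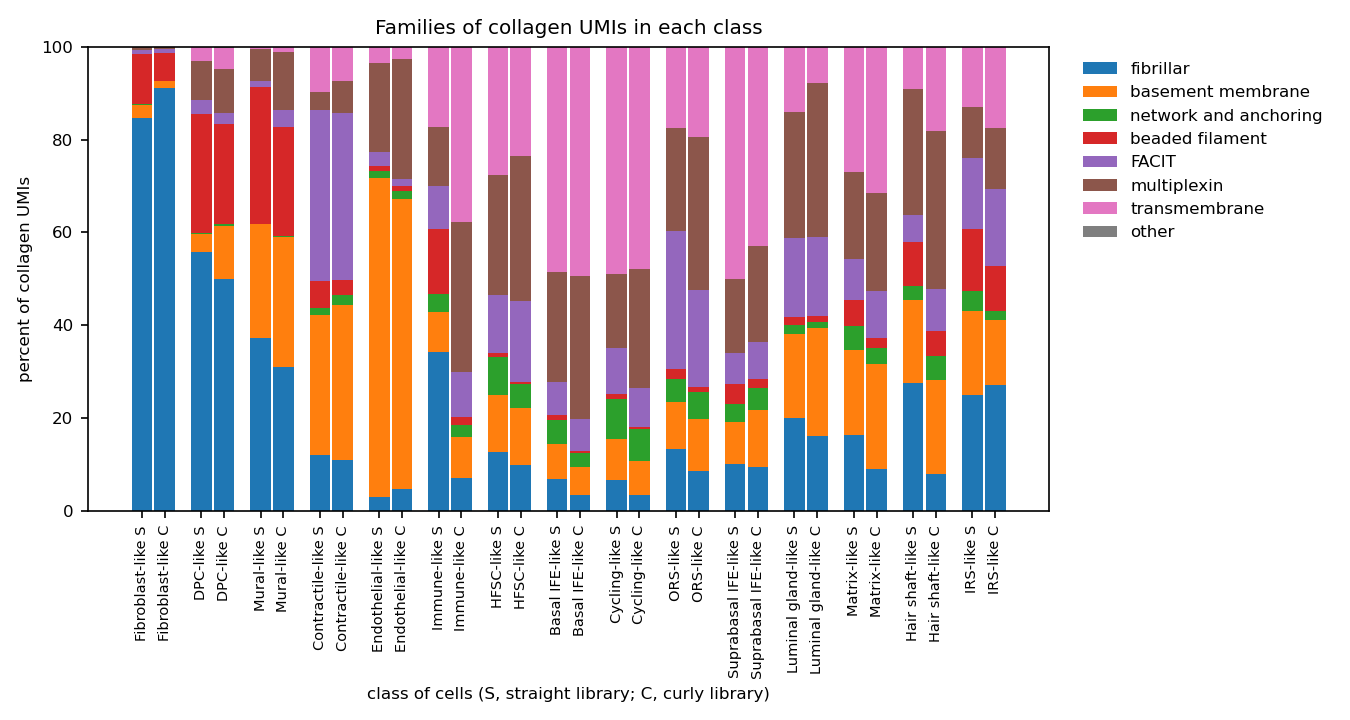
Stacked bars of the percent of collagen UMIs from each collagen family (colours) in each class, with 1 bar for the straight (S) and 1 for the curly (C) library. Fibrillar chains fill the fibroblast-like bars (84.7% and 91.2%), type IV chains the endothelial-like bars (68.8% and 62.5%) and transmembrane chains about equal shares of the basal IFE-like bars (48.5% and 49.3%).

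Among the fibrillar chains, COL1A1 and COL1A2 encode type I, the main collagen of the dermis. Fibroblast-like cells of the straight library held COL1A1 at 24041.7 CPM and those of the curly library at 33995.3 CPM, and DPC-like cells came next with 1111.6 and 636.6 CPM. COL1A2 reached 8860.0 and 11892.6 CPM among fibroblast-like cells, while DPC-like cells had 463.6 and 287.7 CPM. The fibroblast-like level was thus 21.6 and 53.4 times the DPC-like level for COL1A1, and 19.1 and 41.3 times for COL1A2. A UMI of COL1A1 was found in all 43 and all 60 fibroblast-like cells despite their low depth, and in 93.6% and 86.2% of DPC-like cells, which had medians of 6074.5 and 4542.5 UMIs. Suprabasal IFE-like cells, which should lack the gene, showed it in 7.89% and 3.21% of cells at medians of 11631.5 and 10906.0 UMIs. With each cell thinned to 2000 UMIs the shares were 80.9% and 63.0% in DPC-like cells and 1.1% and 0.843% in suprabasal IFE-like cells, while only 10 straight and 13 curly fibroblast-like cells were deep enough to thin.

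Single cells weighed heavily in the fibroblast-like sums. One straight cell held 547 of the 2046 COL1A1 UMIs and one curly cell 758 of 3516, while the median fibroblast-like cell held 25 and 16. Without the cell with most collagen UMIs of each library, COL1A1 was at 19117.2 and 29154.3 CPM and COL1A2 at 6784.8 and 9334.0 CPM, still far above DPC-like cells. The DPC-like class was more even, with a median of 6 straight and 3 curly COL1A1 UMIs and at most 37 and 13 in a cell. The fibroblast-like cells also carried basal IFE markers at a summed 5099.8 and 2494.5 CPM and DPC markers at 2056.4 and 1653.4 CPM. HFSC markers were at 1398.3 and 1044.2, companion layer markers at 1515.8 and 1024.9 and IRS markers at 528.8 and 1585.7 CPM. In both libraries 6 of 7 endothelial markers and all 3 melanocyte markers were at 0, which allows up to 35.25 and 29.01 CPM for each gene. Whether RNA of other cells had a part in their collagen levels was not tested.

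COL3A1, the chain of type III, which forms thin fibrils with type I, was at 11586.1 and 10800.0 CPM in fibroblast-like cells. Mural-like cells came next in the straight library with 673.5 CPM and DPC-like cells in the curly library with 489.1 CPM. The ratio of summed COL3A1 to summed COL1A1 UMIs was higher in mural-like than in fibroblast-like cells. It was 0.903 (0.754 to 1.08) and 0.906 (0.707 to 1.16) in mural-like cells and 0.482 (0.446 to 0.52) and 0.318 (0.297 to 0.34) in fibroblast-like cells. The intervals of these classes did not overlap in either library, but they do not cover the spread between cells. In the straight library 5 of 43 fibroblast-like cells held 53.4% of the COL1A1 and 36.6% of the COL3A1 UMIs of the class. In the curly library 6 of 60 held 54.2% and 52.0%. DPC-like cells, at 0.474 (0.457 to 0.492) and 0.768 (0.719 to 0.821), overlapped fibroblast-like cells in the straight and mural-like cells in the curly library.

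Type V collagen starts and limits the growth of type I fibrils. COL5A1 reached 857.8 and 609.1 CPM in fibroblast-like cells, with DPC-like cells at 56.63 and 63.66 CPM. COL5A2 was at 693.3 and 338.4 CPM in fibroblast-like cells and spread further into the epithelium, with 99.54 CPM in curly HFSC-like cells. The UMIs of COL5A2 over those of COL5A1 came to 0.808 (0.564 to 1.15) and 0.556 (0.357 to 0.853) in fibroblast-like cells, 1.24 (1.1 to 1.41) and 1.22 (1.01 to 1.48) in DPC-like cells, and 2.51 (2.04 to 3.1) and 3.69 (3.02 to 4.53) in HFSC-like cells. The order of the 3 classes was the same in both libraries, and only the fibroblast-like and DPC-like intervals of the straight library overlapped. COL5A3 was at 152.8 (81.34 to 261.2) and 67.68 (27.21 to 139.4) CPM in fibroblast-like cells, and at 63.32 (39.68 to 95.86) and 8.722 (2.832 to 20.35) CPM in mural-like cells. COL27A1 rested on 5 and 2 UMIs in fibroblast-like cells, 58.75 (19.08 to 137.1) and 19.34 (2.342 to 69.85) CPM, whereas 46.5% of its UMIs lay in DPC-like cells at 20.89 and 12.92 CPM, so that its leading class could not be told from the next by counting error in either library.

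Of type VI, COL6A1 was at 2608.6 and 1808.1 CPM and COL6A2 at 2126.9 and 1353.6 CPM in fibroblast-like cells. DPC-like cells had 513.7 and 318.0 CPM of COL6A1 and 418.2 and 237.6 CPM of COL6A2, and mural-like cells 667.7 and 195.4 CPM of COL6A1. COL6A3, the third and longest chain, was at 1128.1 and 599.5 CPM in fibroblast-like cells, with DPC-like cells at 105.8 and 120.4 CPM. The share of DPC-like cells with a COL6A1 UMI was 89.3% and 70.1%, thinned 60.3% and 44.7%, against 2.67% and 0.931% of suprabasal IFE-like cells, thinned 0.785% and 0.12%. Type VI was thus nearly all dermal, with 95.6% of COL6A1, 90.6% of COL6A2 and 92.3% of COL6A3 UMIs in dermal, vascular, contractile or immune classes. COL6A1 over COL6A2 was 1.23 (1.17 to 1.29) and 1.34 (1.22 to 1.47) in DPC-like cells and 0.882 (0.736 to 1.06) and 0.794 (0.614 to 1.03) in mural-like cells, intervals that did not overlap.

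The basement membrane chains divided by tissue layer. COL4A1 and COL4A2, the pair found in basement membranes throughout the body, were highest in fibroblast-like, vascular and muscle cells. COL4A1 was at 951.8 (755.9 to 1183.0) and 676.8 (527.6 to 855.1) CPM in fibroblast-like cells and at 775.2 (728.4 to 824.2) and 525.2 (478.2 to 575.5) CPM in endothelial-like cells, so these classes did not differ beyond their counting error. COL4A2 led in mural-like cells in the straight library with 584.2 CPM, beside 575.8 CPM in fibroblast-like cells, and in endothelial-like cells in the curly library with 310.1 CPM. In the DES-rich cluster 28 COL4A1 was at 469.3 (290.5 to 717.3) and 832.5 (686.7 to 1000.1) CPM.

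COL4A5 and COL4A6, which pair in the basement membranes of epithelium and smooth muscle, had their highest class level in contractile-like cells, with 43.04 and 62.01 CPM of COL4A5 and 21.52 and 27.69 CPM of COL4A6. In the straight library this was not beyond counting error from cluster 17 (an unnamed epithelial cluster led by DKK1), which had 31.16 CPM of COL4A5 and 19.34 CPM of COL4A6. Nor was it for COL4A6 in the curly library, where mural-like cells came next with 20.93 CPM on 12 UMIs. The share of COL4A5 and COL4A6 among all type IV UMIs was larger in most epithelial classes than in contractile-like, mural-like, DPC-like or endothelial-like cells. Matrix-like cells had a share of 53.9% (43.8 to 63.8) and 54.8% (49.0 to 60.5), and suprabasal IFE-like cells of 46.2% (39.7 to 52.8) and 59.2% (52.3 to 65.8). It was 49.6% (45.1 to 54.1) and 53.0% (48.3 to 57.6) in cycling-like cells, 39.6% (32.7 to 46.8) and 40.6% (32.8 to 48.8) in basal IFE-like cells and 23.9% (20.7 to 27.4) and 24.5% (21.9 to 27.4) in HFSC-like cells. It was 9.97% (6.83 to 13.9) and 15.0% (13.3 to 16.9) in contractile-like cells, 12.1% (8.13 to 17.1) and 12.2% (6.01 to 21.3) in ORS-like cells, not told apart from the contractile-like share, and 2.28% (1.1 to 4.16) and 8.31% (5.55 to 11.9) in mural-like cells. In DPC-like cells the share was 0.911% and 0.705%, and in endothelial-like cells 0.0636% and 0.545%. Fibroblast-like cells had none in 130 straight and 98 curly type IV UMIs, which allows shares of up to 2.31% and 3.06%. COL4A3 and COL4A4, the chains of kidney glomerulus, lung and inner ear membranes, had 11 and 25 UMIs in all, most of them in hair shaft-like cells.

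**Figure D3:**
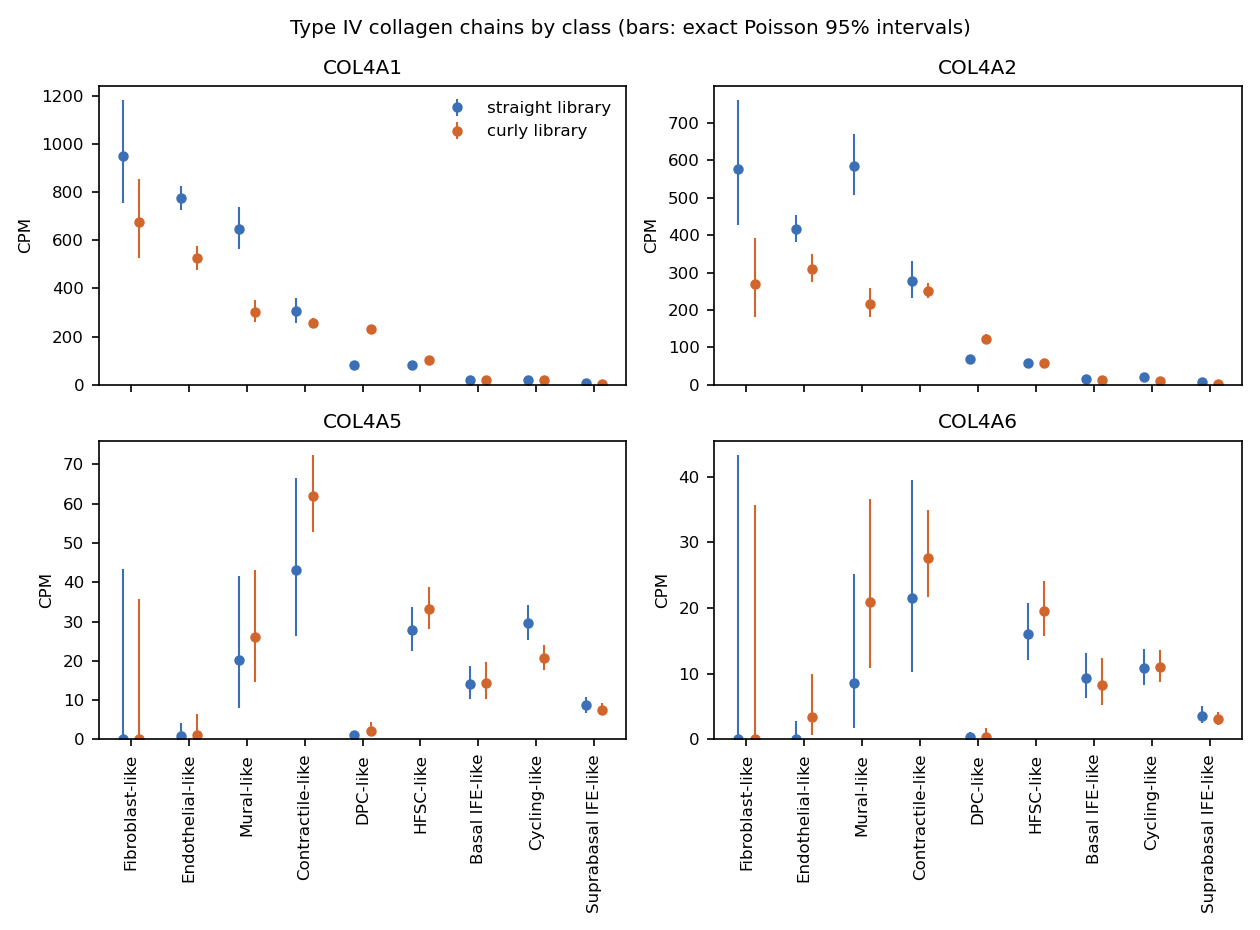
Levels of COL4A1, COL4A2, COL4A5 and COL4A6 in CPM in 9 classes, straight and curly side by side, with exact Poisson 95% intervals. COL4A1 and COL4A2 are high in fibroblast-like, endothelial-like and mural-like cells, and COL4A5 and COL4A6 are highest in contractile-like cells and present in epithelial classes.

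Type VII and the transmembrane type XVII marked the epithelial side of the dermal border. COL7A1 was at 108.9 and 85.17 CPM in HFSC-like cells and at 70.1 and 51.62 CPM in cycling-like cells. Within the latter it lay in cluster 6 (cycling genes beside basal genes), with 109.4 and 125.6 CPM, and hardly in cluster 14, with 4.436 and 3.242 CPM. COL17A1 followed the same line, at 701.6 and 910.3 CPM in cluster 6, against 37.71 and 43.02 CPM in cluster 14. By class, it led in cycling-like cells in the straight library with 453.0 CPM and in basal IFE-like cells in the curly library with 470.1 CPM, with 416.1 and 410.4 CPM in HFSC-like cells. COL17A1 UMIs were found in 86.3% and 91.3% of basal IFE-like cells (medians 8195.0 and 7216.0 UMIs) and in 5.47% and 5.93% of DPC-like cells, which should lack it, and in 50.7% and 54.4% against 1.77% and 2.63% after thinning.

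The network-forming type VIII chains were sparse. COL8A1, known from blood vessel walls and the cornea, was at 22.75 (15.35 to 32.48) and 21.74 (13.09 to 33.95) CPM in endothelial-like cells, ahead of ORS-like cells (outer root sheath) at 7.967 (5.05 to 11.95) and 10.91 (5.811 to 18.66) CPM. The curly intervals overlapped. Only 26.5% of COL8A1 UMIs lay in dermal, vascular, contractile or immune classes, and cycling-like cells held the most, 24.8%. COL8A2 was highest in straight fibroblast-like cells at 47.0 CPM, which rested on 4 UMIs, and in the curly library in cluster 17 at 7.769 CPM, also on 4 UMIs. It was at 12.35 and 5.881 CPM in HFSC-like cells, which held 20.5% of its UMIs.

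Among the FACIT chains, COL12A1, found on fibrils of tendon, muscle and other loaded tissue, stood out in contractile-like cells with 707.9 (633.5 to 788.7) and 551.1 (522.7 to 580.6) CPM. The next class reached 167.3 CPM in the straight library (ORS-like) and 174.0 CPM in the curly library (fibroblast-like). Within the contractile-like class every one of its UMIs lay in cluster 20, at 783.4 and 582.2 CPM, and the DES-rich cluster 28 had 0, which allows up to 67.04 and 21.91 CPM. Conversely COL1A1, COL3A1 and COL6A1 were at 268.1 and 379.7, 491.6 and 343.2, and 312.8 and 233.7 CPM in cluster 28, and at most at 23.81 CPM in cluster 20. The 2 contractile clusters thus differed in these chains in both libraries, with the straight cluster 28 made of only 6 cells, while type IV chains made up 30.5% and 32.4% of the collagen UMIs of cluster 20 and 27.4% and 41.3% of those of cluster 28. COL12A1 was seen in 64.3% and 87.3% of contractile-like cells, in 57.1% and 63.0% after thinning, and in 2.41% and 2.89% of DPC-like cells, 1.01% and 2.14% after thinning.

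Of the other FACIT chains, COL14A1 and COL16A1 were found in dermis and epithelium, and COL21A1 was mostly dermal. COL14A1, a chain on the surface of fibrils, was at 94.0 (40.58 to 185.2) and 154.7 (88.42 to 251.2) CPM in fibroblast-like cells, yet HFSC-like cells at 32.83 and 48.36 CPM held 22.6% of its UMIs, and only 5.8% lay in dermal, vascular, contractile or immune classes. COL16A1 was at 176.3 (98.65 to 290.7) and 203.0 (125.7 to 310.4) CPM in fibroblast-like cells, and at 92.31 (82.6 to 102.8) and 166.2 (154.6 to 178.4) CPM in HFSC-like cells, so the classes did not differ beyond counting error in either library. COL21A1, known from vessel walls, was at 82.25 and 29.01 CPM in fibroblast-like cells on 7 and 3 UMIs, ahead of 27.06 and 12.29 CPM in DPC-like cells, with 89.7% of its UMIs in dermal, vascular, contractile or immune classes and 70.8% in DPC-like cells. COL9A1, a cartilage chain, reached 10.29 (4.707 to 19.54) CPM in straight luminal gland-like cells and 12.59 (7.048 to 20.77) CPM in curly ORS-like cells.

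The multiplexins parted ways. COL15A1 was dermal, at 246.8 (152.8 to 377.2) and 193.4 (118.1 to 298.7) CPM among fibroblast-like cells, and at 158.1 (149.4 to 167.0) and 119.1 (107.4 to 131.8) CPM among DPC-like cells, which held 80.5% of its UMIs. The intervals of the curly library overlapped, as did those of the straight library. COL18A1, the source of the fragment endostatin, was highest in HFSC-like cells with 386.1 (365.9 to 407.0) and 542.6 (521.5 to 564.3) CPM and was spread over many classes. It was at 188.2 and 295.1 CPM in basal IFE-like, 229.8 and 274.6 CPM in endothelial-like and 348.2 (289.0 to 416.1) and 249.5 CPM in mural-like cells, the straight interval overlapping that of HFSC-like cells, while suprabasal IFE-like cells had 44.68 and 29.64 CPM.

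COL13A1 and COL23A1, which encode transmembrane collagens, were the chains that went with the papilla. COL13A1 was at 44.3 and 62.4 CPM in DPC-like cells, with 86.3% of its UMIs there, and COL23A1 at 59.15 and 55.46 CPM, with 88.9%. For COL13A1 the next class in the straight library was endothelial-like cells with 35.65 (26.19 to 47.41) CPM, not beyond counting error. In the curly library it was fibroblast-like cells with 19.34 CPM. Fibroblast-like cells held only 2 COL13A1 UMIs in each library, too few to tell their level from that of DPC-like cells. For COL23A1 the next class was luminal gland-like cells with 11.44 and 3.881 CPM. COL13A1 UMIs were in 21.2% and 24.3% of DPC-like cells and COL23A1 UMIs in 27.5% and 20.1%, against 0.267% and 0.103%, and 1.07% and 0.207%, of suprabasal IFE-like cells. After thinning, COL13A1 was left in 119 of 1186 straight and 73 of 608 curly DPC-like cells and COL23A1 in 137 and 69 of them, against none of 637 straight and 830 curly suprabasal IFE-like cells for either chain, which allows up to 0.471% and 0.361%.

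The 13 chains under 100 UMIs had too few for levels by class. COL11A1 had 91 UMIs, COL28A1 28, COL11A2 27, COL6A6 26, COL4A4 25, COL4A3 11, COL24A1 11, COL20A1 9, COL22A1 4, COL9A2 3, COL9A3 3, COL6A5 3 and COL2A1 2. Of the 28 UMIs of COL28A1, 78.6% lay in DPC-like cells.

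DPC-like cells fell into cluster 0 (SERPINF1, SOX18, APOD, CRABP1), with 645 straight and 458 curly cells, and cluster 3 (FGF7, EBF1, EDN3, RSPO3), with 599 and 200. Among 15 chains with enough UMIs, 5 were at least 2-fold lower in cluster 3 than in cluster 0 in both libraries, against 2.79% of 3085 genes, and 0 were higher in both, against 0.908%. The 5 were COL3A1, COL5A2, COL4A1, COL6A3 and COL23A1. COL3A1 was at 960.3 straight and 619.7 curly CPM in cluster 0 and at 257.5 and 259.7 CPM in cluster 3. COL6A3 was at 208.5 and 158.8 CPM in cluster 0 and at 41.87 and 52.99 CPM in cluster 3. COL4A1 was at 158.7 and 314.0 CPM in cluster 0 and at 35.74 and 89.47 CPM in cluster 3.

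The type I chains, COL6A1 and COL6A2 differed by less than 2-fold between these clusters. COL1A1 was at 926.9 and 634.0 CPM in cluster 0 and 1226.6 and 641.0 CPM in cluster 3, and COL6A1 at 552.4 and 301.7 against 489.5 and 346.6 CPM. The UMIs of COL3A1 over those of COL1A1 were therefore 1.04 (0.984 to 1.09) and 0.977 (0.903 to 1.06) in cluster 0 and 0.21 (0.197 to 0.223) and 0.405 (0.353 to 0.464) in cluster 3. COL18A1 changed sides between the libraries by more than 2-fold, at 88.52 and 226.0 CPM in cluster 0 and at 250.4 and 99.89 CPM in cluster 3, so that cluster 3 was higher in the straight library by a log2 ratio of 1.5 (1.31 to 1.7) and lower in the curly library, at -1.18 (-1.49 to -0.88). COL13A1, COL1A2 and COL6A1 also changed sides, by smaller ratios: COL13A1 from -0.65 (-0.96 to -0.34) to 0.43 (0.01 to 0.85), COL1A2 from 0.11 (0.01 to 0.21) to -0.7 (-0.92 to -0.48) and COL6A1 from -0.17 (-0.26 to -0.08) to 0.2 (0.01 to 0.38). The differences between these ratios were not tested.

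**Figure D4:**
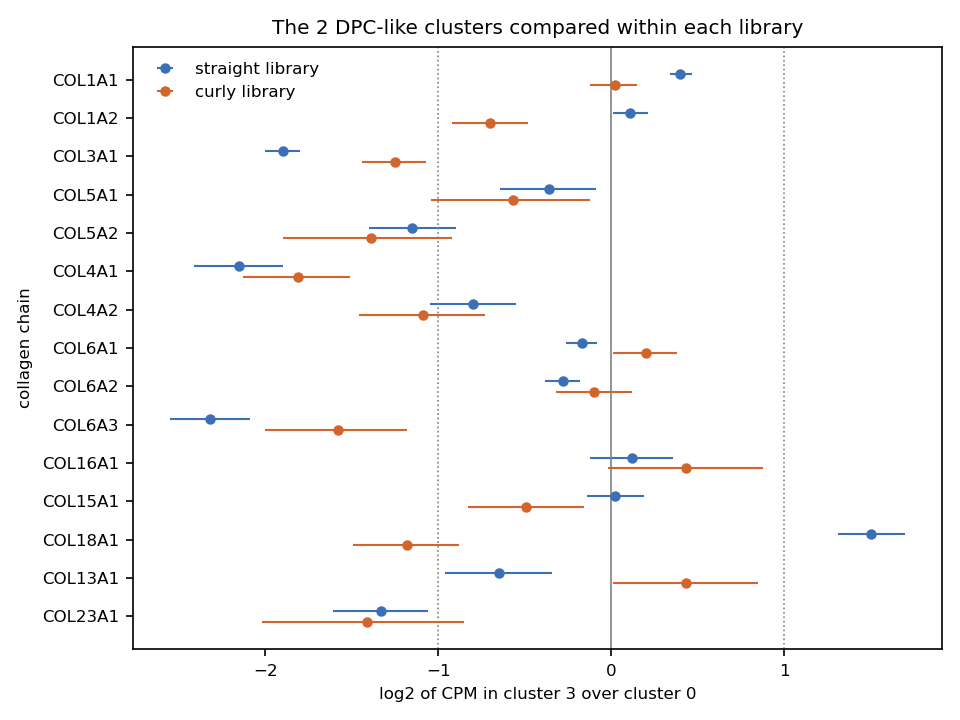
Log2 ratio of the level in cluster 3 over that in cluster 0, both DPC-like, for 15 collagen chains in the straight and curly libraries, with exact 95% intervals. COL3A1, COL5A2, COL4A1, COL6A3 and COL23A1 lie below -1 in both libraries, and COL18A1 lies at 1.5 in the straight and -1.18 in the curly library.

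Between the wool types, the ratio given is curly over straight CPM within a class, on the log2 scale, and a chain was counted as higher or lower from 2-fold on, among chains with at least 100 UMIs in the class. In DPC-like cells 1 of 19 chains was higher in the curly library, against 2.75% of 6943 genes, and 1 was lower, against 5.1%. The higher chain was COL4A1, at 82.93 straight and 232.6 curly CPM, a log2 ratio of 1.49 (1.33 to 1.64). It was higher within each cluster, at 0.98 in cluster 0 and 1.32 in cluster 3, and its partner COL4A2 had a ratio of 0.86 (0.67 to 1.05). DPC-like cells with a COL4A1 UMI made up 34.6% and 51.4%, thinned 18.1% and 32.6%, against 8.29% and 4.76% of suprabasal IFE-like cells, thinned 1.26% and 1.08%. In the same cells the summed markers of Schwann cells were at 47.95 and 196.0 CPM, those of HFSC at 926.6 and 2281.6 CPM and of basal IFE at 1100.6 and 1899.6 CPM, all higher in the curly library, and their part in the COL4A1 difference was not tested. Endothelial markers were at 5.663 and 3.782 CPM and mural markers at 77.27 and 99.9 CPM, and their part was not tested either.

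The lower chain was COL21A1, at 27.06 straight and 12.29 curly CPM, a ratio of -1.14 (-1.67 to -0.64). The main dermal chains were below 2-fold: COL1A1 had a ratio of -0.8 (-0.87 to -0.73), COL1A2 of -0.69 (-0.79 to -0.58), COL6A1 of -0.69 (-0.79 to -0.59) and COL6A2 of -0.82 (-0.93 to -0.7). COL3A1 at -0.11 and COL6A3 at 0.19 were close to even for the class, but the class mixes clusters in different proportions. COL3A1 had a ratio of -0.63 within cluster 0 and 0.01 within cluster 3, and COL6A3 of -0.39 and 0.34. Within cluster 0, COL18A1 was higher at 1.35 and COL21A1 lower at -2.06, against 2.63% and 2.69% of genes. Within cluster 3, COL4A1 and COL13A1 were higher at 1.32 and 1.04, against 2.75% of genes, and COL18A1 and COL1A2 were lower at -1.33 and -1.21, against 9.72%. Where fibroblast-like cells were added to the DPC-like class, COL1A1, COL1A2 and COL3A1 turned to 0.32, 0.24 and 0.34, since the few fibroblast-like cells hold so much of them.

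In mural-like cells, 7 of 8 chains were at least 2-fold lower in the curly library, against 4.57% of 1137 genes, and 0 were higher, against 6.51%. The median ratio of the 8 chains was -1.62, and that of all genes -0.12. COL1A1 was at 745.4 straight and 242.5 curly CPM, COL3A1 at 673.5 and 219.8 CPM, COL6A2 at 756.9 and 246.0 CPM and COL4A1 at 647.6 and 303.5 CPM, and only COL18A1 stayed under 2-fold at -0.48 (-0.84 to -0.12). The cells of this class were not alike in the libraries: mural markers summed to 3709.8 straight and 1079.8 curly CPM, contractile markers to 6115.8 and 12362.6 CPM, fibroblast markers to 1381.4 and 816.4 CPM and basal IFE markers to 1263.4 and 3628.4 CPM. Their part in the lower collagen was not tested.

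In fibroblast-like cells none of 8 chains passed 2-fold, against 8.7% of 253 genes higher and 4.74% lower. COL1A1 had a ratio of 0.5 (0.42 to 0.58) and COL3A1 of -0.1 (-0.23 to 0.02), while the type VI chains were lower at -0.53 for COL6A1, -0.65 for COL6A2 and -0.91 for COL6A3. The COL1A1 ratio was 0.61 without the richest cell of each library. With the mean of per-cell CPM in place of sums, the COL1A2 ratio went from 0.42 to -0.06 and the COL1A1 ratio from 0.5 to 0.0. No interval was calculated for these means. In HFSC-like cells none of 14 chains passed 2-fold, against 2.29% of 5906 genes higher and 5.35% lower, and COL16A1 at 0.85 (0.66 to 1.04) and COL18A1 at 0.49 (0.4 to 0.59) were on the curly side. The class mixed its clusters unequally, cluster 2 with 294 straight and 616 curly cells and cluster 13 with 277 and 222. COL16A1 had a ratio of 0.7 (0.44 to 0.96) within cluster 2 and 0.07 (-0.28 to 0.41) within cluster 13, and COL18A1 of 0.44 (0.3 to 0.58) and 0.14 (-0.01 to 0.3). HFSC markers summed to 17173.8 straight and 12079.2 curly CPM and luminal gland markers to 418.6 and 941.6 CPM in this class, and their part in these ratios was not tested. Contractile-like cells likewise had none of 10 chains past 2-fold (6.86% of genes higher, 1.92% lower), endothelial-like cells none of 4 (4.57% and 2.18%) and basal IFE-like cells none of 6 (2.19% and 3.02%).

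Elsewhere in the epithelium, suprabasal IFE-like cells had COL1A1 and COL17A1 lower, of 8 chains and against 4.65% of genes. COL17A1 was at 141.8 straight and 62.34 curly CPM there, a ratio of -1.19 (-1.32 to -1.05), with ratios of -1.12 in cluster 1 and -1.2 in cluster 8 that make up the class. In the same cells basal IFE markers summed to 15671.2 straight and 6252.6 curly CPM, HFSC markers to 989.9 and 508.9 CPM and DPC markers to 167.5 and 56.72 CPM, and their part in the lower COL17A1 and COL1A1 was not tested. Cycling-like cells had COL1A1, COL4A2 and COL5A2 lower, of 12 chains and against 3.18% of genes. Cluster 6, which held 0.139% and 0.186% of its UMIs in collagen, made up 409 of 562 straight but 336 of 612 curly cells of the class, and cluster 14 held 0.0174% and 0.0122%. Within cluster 6 only COL1A1 of these chains passed 2-fold, at -1.2, with COL5A2 at -0.52 and COL4A2 at -0.38, and within cluster 14 the ratios of the 3 chains in the same order were -1.74, -2.42 and -1.57. ORS-like cells had COL12A1 lower (1.75% of genes), and cluster 15 COL7A1 (3.04% of genes). Luminal gland-like cells had COL14A1 higher, with 13.72 straight and 63.07 curly CPM (4.1% of genes). Nearly all of it lay in cluster 24 (LCN2, KRT19, VDR, FGF5), which had 28 straight and 109 curly cells against 105 and 88 in cluster 23, and within cluster 24 the ratio was 0.88 (0.03 to 1.87), below 2-fold. Cluster 21, an unnamed epithelial cluster, had COL1A1 higher (9.09% of genes), with 256 of its 265 curly UMIs in 1 cell.

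**Figure D5:**
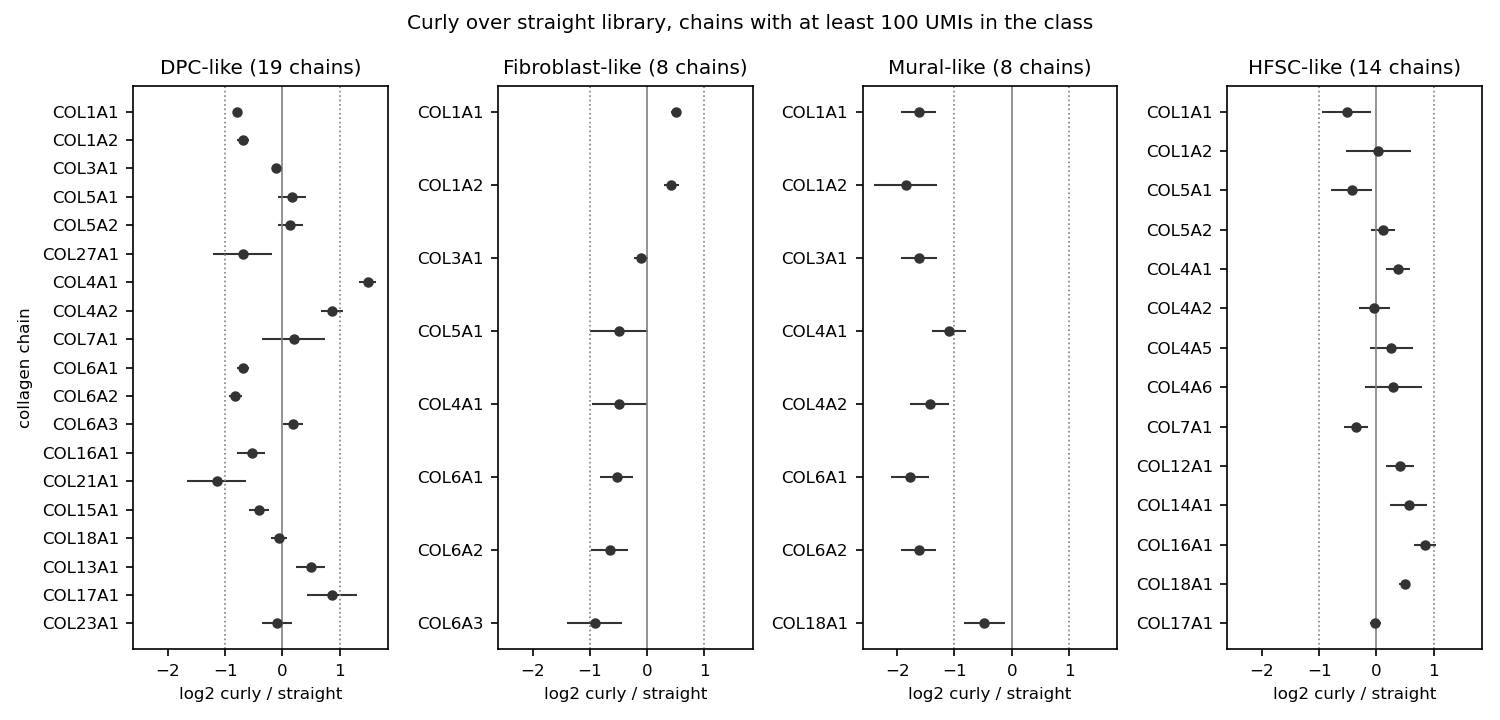
Log2 ratio of curly over straight CPM, with exact 95% intervals, for the chains with at least 100 UMIs in DPC-like (19), fibroblast-like (8), mural-like (8) and HFSC-like (14) cells. In DPC-like cells COL4A1 lies at 1.49 and COL1A1 at -0.8, and all 8 chains lie below 0 in mural-like cells.

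Collagen chains are hydroxylated and folded in the endoplasmic reticulum, trimmed outside the cell, cross-linked, bound by receptors and finally degraded. Of 42 genes of a list for these steps that the table held, 28 had at least 100 UMIs, and fibroblast-like cells led for 13 of the 28 in both libraries, against 7.15% of genes. Here too the rule took no account of counting error. Any dermal, vascular, contractile or immune class led for 25, against 38.8% of genes, and an epithelial class or unnamed cluster for 2, against 34.8%.

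Among 13 genes of chain modification and folding, SERPINH1, the collagen chaperone HSP47, was at 1151.6 and 1991.8 CPM in fibroblast-like, 776.3 and 515.2 CPM in DPC-like and, among suprabasal IFE-like cells, 18.14 and 12.22 CPM. P4HA3, a prolyl hydroxylase subunit, was led by DPC-like cells with 93.88 and 155.0 CPM. PCOLCE, which speeds removal of the C-terminal propeptide, was at 1609.8 and 2078.8 CPM in fibroblast-like cells, with DPC-like cells at 1404.3 and 1181.1 CPM.

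The 3 cross-linking enzymes went with 3 different classes. LOX was at 317.3 and 493.1 CPM in fibroblast-like cells, with DPC-like cells at only 15.6 and 13.24 CPM, LOXL1 was led by DPC-like cells with 197.9 and 177.7 CPM, and LOXL3 by contractile-like cells with 228.1 and 100.2 CPM. Among receptors, ITGB1 was highest in contractile-like cells with 983.4 and 672.4 CPM, ITGA1 in mural-like cells with 143.9 and 73.27 CPM, and CD44, which binds hyaluronan and also collagen, in immune-like cells with 836.1 and 734.1 CPM. For breakdown, CTSK (cathepsin K) and FAP (a fibroblast surface protease) were led by fibroblast-like cells, with 211.5 and 386.7 and 352.5 and 232.0 CPM, and MMP1 by luminal gland-like cells with 18.3 and 7.277 CPM.

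The 24 such genes with at least 100 UMIs in DPC-like cells had a median ratio of curly over straight of -0.46, beside -0.07 for all genes. The class mixed its clusters unequally, cluster 0 with 645 straight and 458 curly cells and cluster 3 with 599 and 200. HFSC markers summed to 926.6 straight and 2281.6 curly CPM and basal IFE markers to 1100.6 and 1899.6 CPM in this class. The part of either in these ratios was not tested. At least 2-fold lower were 4 of the 24 genes, against 5.1% of genes, and 0 were 2-fold higher, against 2.75%. The 4 were PLOD3, a lysyl hydroxylase, at -1.43 (-1.85 to -1.04), P3H4, which belongs to the prolyl 3-hydroxylase family, at -1.24 (-1.54 to -0.95), PCOLCE2, a relative of PCOLCE, at -4.02 (-6.32 to -2.44) on 125 UMIs, and ITGA1 at -1.72 (-2.78 to -0.82). SERPINH1 had a ratio of -0.59 (-0.67 to -0.51) and P4HA3 of 0.72 (0.56 to 0.89).

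Some collagen genes lie side by side in the genome. By the gene order of the RefSeq ARS-UI_Ramb_v3.0 annotation, which is another assembly than the one the files were made on, COL4A1 and COL4A2 are neighbours, as are COL4A5 and COL4A6, COL6A1 and COL6A2, and COL5A2 and COL3A1. Over 53 points, each the level of 1 cluster with at least 25 cells in 1 library as log2(CPM + 5), the Pearson r of the neighbours was 0.97, 0.89, 0.98 and 0.68. COL18A1 lies 3 genes from COL6A1, with r at 0.14. COL1A1 and COL1A2, which are not neighbours, reached 0.98, and COL15A1 and COL13A1 0.94, COL7A1 and COL17A1 0.8. These correlations describe 53 points that share libraries and depth.

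Over the same 53 points, the genes most like 5 chosen chains outside the collagens were DCLK1 and CD248 for COL1A1 (r 0.943 for each), TWIST2 (0.957) and LAMC3 (0.954) for COL6A3, LAMC1 (0.882), the laminin gamma chain of most basement membranes, for COL4A1, and TPT1 (0.841) for COL18A1. For COL17A1 they were IL20RA (0.831) and ITGB4 (0.823), the integrin chain of hemidesmosomes.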

How the data were processed

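Single-cell RNA was measured in 2 pooled lambskin libraries. Per the labels, Cell Ranger 3.0.2 was among the tools used (submitters' processing notes). The authors deposited natural log values, ln(1 + UMIs of a gene divided by UMIs of the cell, times 10000), in 1 table of both libraries. The analysis had been planned for counts, so whole UMIs were recovered from these values: 100.0% of 28552149 values above 0 came out whole within 0.01. The table held 14037 cells, where the series design states 15830. No column lacked a sample.

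Cells were clustered with Seurat 5.3.0 in R 4.3.3 (anchor integration, 2000 variable genes without collagens, 30 dimensions, resolution 0.8), giving 29 clusters. A cluster was named when its marker score reached 1.25 at least 3 markers were in 10% of its cells and no other class had more markers among its 10 leading genes, and clusters far shallower than their library also needed a marker of their own among those genes. These limits were set after the scores were seen (lowest named 1.47, highest unnamed that missed it 1.16), and 7 clusters stayed unnamed. Doublets were not removed in the main results. UMIs summed over each class of a library were turned into CPM with scipy 1.17.1, numpy 2.4.6 and pandas 2.3.3 under Python 3.11.15 (plots: matplotlib 3.10.9), with exact Poisson, binomial or Clopper-Pearson 95% intervals. Droplet libraries hold free RNA, so shares of cells with a UMI are given beside a class that should lack the gene, also thinned to 2000 UMIs per cell. The ratio script was tested on simulated data. Genes named were all chains with at least 100 UMIs at their leading class, and the leading gene of each pathway step. Members and lists were chosen with earlier results of these data known. The collagen genes COL10A1, COL19A1, COL25A1 and COL26A1 and the pathway genes P4HA2, ADAMTS2, LOXL2, GP6, MMP3 and MMP13 were not analysed here. The RefSeq gene table matched 39 of the 40 members.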

Additional observations from a re-analysis of the deposited data

Results flagged for a closer look

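COL4A1, a chain of every basement membrane, was on opposite sides in 2 classes that both lie in the dermis: the log2 ratio of curly over straight was 1.49 in DPC-like cells (1.33 to 1.64) and -1.09 in mural-like cells (-1.39 to -0.8). Each wool type had a single library, so all samples of a class moved one way by construction, and the difference between the classes was not tested.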

How the results depend on the processing

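With 1 library per wool type no replicate could be left out. No paired analysis was possible because each group had 1 sample. Across alternative clusterings, cell filters and scalings, fibroblast-like cells led for 14 to 15 chains wherever they could be compared, and the count of mural-like chains 2-fold or more lower in the curly library, 7 in the main result, was 5 to 7, and 10 with chains of at least 20 UMIs counted. With only the 3964 straight and 4321 curly cells with most genes detected, 5 and 3 fibroblast-like and 15 and 17 mural-like cells were left, too few for a value, and 2 chains were 2-fold higher in curly DPC-like cells. With chains of at least 20 UMIs, an epithelial class or unnamed cluster led for 8 chains, and 3 chains were 2-fold higher in curly DPC-like cells. Ratios that changed sign were, at resolution 0.4, COL18A1 (-0.13) and COL12A1 (0.15) in contractile-like and COL4A1 (-0.08) in HFSC-like cells, and at resolution 1.2, COL18A1 (-0.12) and COL12A1 (0.16) in contractile-like cells. With the mean of per-cell CPM they were COL6A3 in DPC-like (-0.05), COL1A2 in fibroblast-like (-0.06), COL18A1 in contractile-like (-0.05), COL12A1 (-0.16) and COL4A1 (-0.06) in HFSC-like cells. With DPC-like and fibroblast-like cells pooled, an alternative chosen after seeing the data like the removal of shared barcodes and of the richest fibroblast-like cells, they were COL3A1 (0.34), COL1A2 (0.24) and COL1A1 (0.32). The cause was not tested, except that the pooled value follows from the added cells. Of 739 ratios, 646 kept their value within the counting interval, 80 moved and 13 changed sign, and of 448 levels 367 kept it and 81 moved. Without the 70 barcodes found in both libraries 1 of 54 levels moved and all 69 ratios stayed within their intervals. The planned Gly-X-Y content of the chains was not run, as no protein sequence was used here. A doublet caller marked 0.899% straight and 0.0264% curly cells, and the highest 6% of its scores (842 cells) were removed as an alternative.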

Other observations

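A few collagen values in classes that should make little of it rested on single cells. In cluster 21, an unnamed epithelial cluster (CDSN, KLK6, KLK7), COL1A1 was 2-fold or more higher in the curly library at a log2 ratio of 4.12, but 256 of its 265 curly UMIs (96.6%) lay in 1 cell, as did 56 of 63 COL1A2 UMIs (88.9%). In curly IRS-like cells, 44 of 76 COL1A2 UMIs (57.9%) lay in 1 cell, and COL1A1 over COL1A2 was 0.197 there, against 2.71 straight and 2.86 curly in fibroblast-like cells and 2.4 and 2.21 in DPC-like cells. In curly cluster 11 cells, 39 of 67 COL1A1 UMIs (58.2%) lay in 1 cell.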
